A study of Mus musculus with 6 samples.

Results

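The chemokine system of the injured mouse kidney was followed in 53 genes, 35 ligands and 18 receptors, out of 26971 rows in the table of counts. Members were taken by their symbols: the Ccl and Cxcl ligands, Cx3cl1 and Xcl1, and the Ccr, Cxcr, Cx3cr1 and Ackr receptors. Polyadenylated RNA from the cortex of kidneys of male C57BL/6 mice was sequenced 1 day after surgery. All 6 libraries carried IRI, which stands for ischaemia-reperfusion injury, damage from cutting off the blood supply of an organ and letting it return. The congested libraries combined IRI with renal congestion (titled Cong_IRI, with the treatment given as IRI with IVCC), and the IRI libraries had the injury alone (titled CLK_IRI). The labels expand neither CLK nor IVCC, and no uninjured kidney was analysed here. Each group had 3 libraries numbered 1 to 3, and the labels do not tie them to individual animals, so the p-values reflect no more than the spread among these libraries, which may be technical.

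Chemokines are small secreted proteins that guide leukocytes along concentration gradients, and their families are named after the spacing of conserved cysteines. They act through receptors coupled to G proteins on the migrating cell. Atypical receptors (Ackr) bind chemokines and remove or transport them without that signal. In the injured kidney the best known axes are Ccl2 with Ccr2, which draws monocytes, and Cxcl1 and Cxcl2 with Cxcr2, which draw neutrophils.

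Of the ligands 17 of 35, and of the receptors 7 of 18, had 10 or more counts in 3 or more libraries. The filter of the test kept 16 ligands and 7 receptors, 23 of 53 members, among 14274 genes. It left out Ccl12, which encodes a monocyte-attracting ligand, with 8, 11 and 10 counts in congested libraries 1, 2 and 3 and 6, 14 and 2 in IRI libraries. No member passed through 1 group alone: Ccl2 and Ccl20 had 10 counts in 3 congested and 2 IRI libraries, and Cxcl2 and Cxcr2 in 2 congested and 1 IRI. Total counts ranged from 11376642 to 12856600 in the congested libraries and from 10865860 to 14350425 in the IRI libraries. Library 1 of both groups stood apart from the rest in several members, and the values below give each library and the difference within equal replicate numbers.

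No chemokine gene passed the test between the groups. edgeR called 0 of 16 ligands and 0 of 7 receptors at an adjusted p under 0.05, as it called 0% of all genes. At an unadjusted p under 0.05 it found 1 ligand higher, Ccl6, against 0.988% of all genes, and no member lower, against 1.01%. DESeq2 and limma-voom also called 0 members; at an unadjusted p under 0.05 they found 2 and 1 of 23 members in either direction, where 2.48% and 1.93% of all genes were. With the replicate number as a term, edgeR again called 0% of genes, while DESeq2 called 2 of 16 ligands and 0 of 7 receptors, both higher, where it called 0.0701% of all genes in either direction and 0.049% of all genes as higher. Those ligands were Ccl6 and Ccl9. That equal numbers pair libraries was assumed, as the labels do not say so. In that paired edgeR fit 6 ligands and 2 receptors were higher at an unadjusted p under 0.05, where 4.08% of all genes were. The receptors were Ccr2 and Cxcr2. No member was lower, where 2.98% were.

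Ccl6 and Ccl9 encode CC chemokines of rodents, both ligands of Ccr1 that are made by myeloid cells. On GRCm38 they are neighbouring protein-coding genes on the minus strand of chromosome 11, Ccl9 from 83572919 to 83578636 and Ccl6 from 83587882 to 83593087. Ccl6 lay at 39.8, 6.00 and 2.12 CPM in congested libraries 1, 2 and 3, against 5.09, 1.96 and 0.971 CPM in IRI libraries 1, 2 and 3. CPM is the count scaled to the size of the library. Congested library 1 was far above the other 5, the groups overlapped, and the congested library was the higher one in each replicate number. Its log2 fold change was 2.56 ± 1.09 (SE, edgeR adjusted p = 0.933) without the replicate number. In DESeq2 with the replicate number it rose by 2.02 ± 0.42 (SE, DESeq2 adjusted p = 0.00441). The differences within numbers 1, 2 and 3 were 2.93, 1.54 and 1.01 on the log2 CPM scale.

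Ccl9 had the same pattern. Its level was 41.3, 5.05 and 2.59 CPM in congested libraries 1, 2 and 3, against 7.72, 1.20 and 0.971 CPM in IRI libraries, so that IRI library 1 exceeded congested libraries 2 and 3. The log2 fold change of Ccl9 was 2.29 ± 1.18 (SE, edgeR adjusted p = 0.933) without the replicate number and 2.05 ± 0.38 (SE, DESeq2 adjusted p = 7.7e-04) with it. Congested library 1 carried much of the unpaired value of both genes. Without it the log2 fold change was 0.59 for Ccl6 and 0.20 for Ccl9, and without IRI library 1 it was 3.44 and 3.90. Fitted on numbers 2 and 3 alone, DESeq2 with the replicate number gave 1.39 for Ccl6 and 1.76 for Ccl9, with the adjusted p of each at 1.00. Without number 2 it gave 2.19 and 2.0 (DESeq2 adjusted p = 0.524 for both). Without number 3, where it called 3068 genes in all, it gave 2.35 and 2.27 (DESeq2 adjusted p = 3.4e-07 and 5.4e-08). A gene on the opposite strand, E230016K23Rik, overlaps Ccl6, and whether counting used the strand is not given in the sources used here.

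The bases before the annotated start of Ccl6 and Ccl9 are shown because these neighbouring genes were the members called with the replicate number. They are from RefSeq on GRCm38.p6, minus strand, 5′ to 3′ in the direction of transcription, at chr11:83593088-83593337 for Ccl6 and chr11:83578637-83578886 for Ccl9. Capitals mark a match on either strand to TGANTCA, an AP-1 type pattern with any letter at its centre, or to GGANTTTCC, an NF-kB type pattern. No match of one overlapped one of the other in these windows.
Ccl6: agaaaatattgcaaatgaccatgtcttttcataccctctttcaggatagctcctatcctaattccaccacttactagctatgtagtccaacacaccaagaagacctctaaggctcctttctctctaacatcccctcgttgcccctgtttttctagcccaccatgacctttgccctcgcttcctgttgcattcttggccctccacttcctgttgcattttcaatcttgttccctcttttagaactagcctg
Ccl9: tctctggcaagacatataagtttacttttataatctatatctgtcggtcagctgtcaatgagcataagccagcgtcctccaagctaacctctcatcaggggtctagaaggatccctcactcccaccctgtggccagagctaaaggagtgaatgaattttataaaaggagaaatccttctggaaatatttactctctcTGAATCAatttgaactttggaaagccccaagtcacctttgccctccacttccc
Ccl9 held 1 AP-1 type match, TGAATCA, whose first base lies 53 bases before the start. Ccl6 held no match of either kind in its window.

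Ccl2 and Ccl5, 2 further inducible CC ligands, were higher in the congested library of every replicate number without passing the test. Ccl2, the principal attractant of Ccr2-bearing monocytes, lay at 13.3, 3.37 and 0.863 CPM in congested libraries 1, 2 and 3, against 4.69, 1.20 and 0.441 CPM in IRI libraries. The groups overlapped, because IRI library 1 was above congested libraries 2 and 3. Its log2 fold change was 1.45 ± 1.07 (SE, edgeR adjusted p = 0.933), and -0.01 without congested library 1. Within numbers 1, 2 and 3 the differences of Ccl2 were 1.47, 1.38 and 0.76, and with the replicate number as a term its log2 fold change was 1.40 ± 0.30 (SE, edgeR adjusted p = 0.577). Ccl5, a ligand of Ccr1, lay at 5.29, 1.68 and 0.628 CPM in congested libraries, against 1.27, 1.28 and 0.0883 CPM in IRI libraries. The last of these rests on 1 count. Its log2 fold change was 1.49 ± 0.95 (SE, edgeR adjusted p = 0.933) and 0.38 without congested library 1, and its differences within numbers were 1.93, 0.36 and 1.65.

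Of the CXC ligands that attract neutrophils, Cxcl1 and Cxcl2 passed the filter and neither passed the test. Cxcl1 lay at 13.6, 6.81 and 2.67 CPM in congested libraries 1, 2 and 3, against 16.6, 3.84 and 3.44 CPM in IRI libraries. The groups overlapped throughout, with library 1 the highest in each. Its log2 fold change was -0.06 ± 0.76 (SE, edgeR adjusted p = 0.989); it was 0.09 with scaling by total counts, 0.05 with the replicate number as a term, 1.08 without IRI library 1, 0.35 without congested library 3 and 0.03 without congested library 2. Without congested library 1 it was -0.76. Cxcl2 lay at 2.69, 1.46 and 0.392 CPM in congested libraries, against 1.51, 0.0854 and 0.265 CPM in IRI libraries, where libraries 2 and 3 held 1 and 3 counts. Cxcl2 was higher in the congested library of each number, by 0.77, 2.71 and 0.38, and its log2 fold change was 1.24 ± 0.97 (SE, edgeR adjusted p = 0.933). It was 3.04 without IRI library 1 and 0.55 without congested library 1. Cxcl3 and Cxcl5, of the same subfamily, did not pass the filter, with at most 3 and 13 counts in a library.

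Cxcl10, induced by interferons and a ligand of Cxcr3 on lymphocytes, lay at 8.26, 8.79 and 6.04 CPM in congested libraries 1, 2 and 3, against 2.31, 7.43 and 1.94 CPM in IRI libraries. Only IRI library 2 reached into the congested range. The log2 fold change of Cxcl10 was 0.98 ± 0.53 (SE, edgeR adjusted p = 0.933), and 1.85 without IRI library 2. Differences within numbers were 1.77, 0.24 and 1.56. Cxcl9 and Cxcl11, named for the other interferon-induced ligands of Cxcr3, had at most 14 and 5 counts in a library, and Cxcr3 at most 2. Cxcl11 is annotated as a polymorphic pseudogene on GRCm38. Art3 overlaps Cxcl10 on the opposite strand.

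An NF-kB type match stood in the 250 bases before the start of 4 of the 25 ligands with a RefSeq promoter, Cxcl1, Cxcl2, Cxcl3 and Cxcl10, which is 16%. Of the 14 receptors with one, 0 held it, and 1.25% of all 27025 genes did. An AP-1 type match stood in 3 of 25 ligands (12.0%: Ccl9, Cxcl10 and Ccl27a), in 1 of 14 receptors (7.14%: Ccr4) and in 7.82% of all genes. The stretches that carry the NF-kB type match are shown because these CXC ligands share it; among the 3 that were tested the log2 fold change ranged from -0.06 to 1.24. They end at the base before the start, at chr5:90891125-90891244, chr5:90903779-90903898 and chr5:90785981-90786100 on the plus strand for Cxcl1, Cxcl2 and Cxcl3, and at chr5:92348890-92349069 on the minus strand for Cxcl10, with matches in capitals.
Cxcl1: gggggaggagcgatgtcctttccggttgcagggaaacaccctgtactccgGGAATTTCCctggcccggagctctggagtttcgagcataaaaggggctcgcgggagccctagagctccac
Cxcl2: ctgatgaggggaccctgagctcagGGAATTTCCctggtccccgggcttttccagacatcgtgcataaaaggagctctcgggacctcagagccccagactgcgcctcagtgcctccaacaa
Cxcl3: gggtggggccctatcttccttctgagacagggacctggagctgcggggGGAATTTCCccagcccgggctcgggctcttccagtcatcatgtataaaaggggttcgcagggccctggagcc
Cxcl10: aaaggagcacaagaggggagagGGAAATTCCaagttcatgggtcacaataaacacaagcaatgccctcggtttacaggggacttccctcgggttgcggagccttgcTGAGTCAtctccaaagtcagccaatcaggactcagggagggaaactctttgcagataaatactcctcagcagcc
The NF-kB type match began 70, 96, 72 and 158 bases before the RefSeq start of Cxcl1, Cxcl2, Cxcl3 and Cxcl10. That of Cxcl10 is on the other strand. These RefSeq starts lie 4, 28, 2 and 0 bases from the starts in the GENCODE annotation. A match is a description of letters and was not tested as a site.

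The ligands Cx3cl1, Cxcl16, Cxcl12 and Cxcl14, known from epithelium, endothelium and stroma, were the 4 most abundant per length in IRI kidney, and none passed the test. Cx3cl1, the membrane-bound fractalkine of endothelium and epithelium, was the sole tested member whose groups did not overlap, 1 of 23, where 3.42% of all genes lay wholly higher and 3.07% wholly lower. It lay at 96.7, 116 and 104 CPM in congested libraries 1, 2 and 3, against 90.2, 89.6 and 79.8 CPM in IRI libraries. Its fold change was 1.22, a log2 value of 0.29 ± 0.19 (SE, edgeR adjusted p = 0.933), and lay between 0.22 and 0.34 when any 1 library was left out. Cx3cl1 is a protein-coding gene on chromosome 8, from 94772009 to 94782427 of GRCm38. Its receptor Cx3cr1, found on resident macrophages and monocytes, lay at 1.62, 5.05 and 2.75 CPM in congested libraries, against 1.99, 4.44 and 1.68 CPM in IRI libraries. Those groups overlapped, and its log2 fold change of 0.22 ± 0.55 (SE, edgeR adjusted p = 0.956), was -0.30 without congested library 2 and -0.02 without IRI library 3. Other annotated genes overlap the span of Cx3cr1.

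Cxcl12, which retains Cxcr4-bearing cells in tissue, lay at 37.7, 89.2 and 107 CPM in congested libraries 1, 2 and 3, against 46.3, 86.8 and 116 CPM in IRI libraries. Library 1 was the lowest of each group, and the log2 fold change was -0.09 ± 0.46 (SE, edgeR adjusted p = 0.972). It was 0.24 without congested library 1 and 0.24 without IRI library 3. Cxcr4 lay at 4.31, 3.51 and 3.3 CPM in congested libraries, against 3.66, 2.90 and 2.65 CPM in IRI libraries. The congested library was the higher in every number, by 0.23, 0.26 and 0.30, a log2 fold change of 0.27 ± 0.30 (SE, edgeR adjusted p = 0.933). Ackr3, the atypical receptor that takes up Cxcl12, was the most abundant receptor gene per length and lay at 89.7, 62.9 and 57.2 CPM in congested libraries, against 90.4, 50.2 and 56.8 CPM in IRI libraries. On the log2 scale the fold change was 0.09 ± 0.29 (SE, edgeR adjusted p = 0.969), and -0.14 without congested library 1, -0.07 without IRI library 2 and -0.0050 without IRI library 3.

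Cxcl16, a membrane-bound ligand of Cxcr6, lay at 71.7, 61.5 and 45.1 CPM in congested libraries 1, 2 and 3, against 77.4, 65.5 and 36.4 CPM in IRI libraries, with the same order of numbers in both groups. The log2 fold change was -0.01 ± 0.32 (SE, edgeR adjusted p = 0.996), and 0.11 with scaling by total counts, 0.03 with the replicate number as a term, 0.23 without IRI library 1, 0.16 without congested library 3 and 0.06 without IRI library 2. Cxcl14 lay at 11.6, 14.9 and 20.8 CPM in congested libraries, against 24.5, 17.8 and 14.7 CPM in IRI libraries. Those groups overlapped, and its differences within numbers 1, 2 and 3 were -1.07, -0.25 and 0.50 (log2 fold change -0.27, standard error 0.30, edgeR adjusted p = 0.933). The paired edgeR value of Cxcl14 without number 1 was 0.13.

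Ccl20, Ccl21a, Ccl25, Ccl27a and Ccl28 are known mainly for attracting lymphocytes to epithelia and lymphoid tissue, and none passed the test. Ccl27a had an unadjusted p of 0.0711 in edgeR's quasi-likelihood fit, at 2.15, 2.05 and 3.92 CPM in congested libraries 1, 2 and 3, against 5.65, 5.12 and 3.44 CPM in IRI libraries. Congested library 3 exceeded IRI library 3, so the groups overlapped. As a log2 value the difference was -0.80 ± 0.38 (SE, edgeR adjusted p = 0.933). Ccl27a overlaps Il11ra1 on the opposite strand and has near-identical copies, so its counts are uncertain. Ccl25, an attractant of gut-homing T cells, was the sole tested member that was lower in all 3 numbers, with differences of -0.62, -0.34 and -0.26, where 13.1% of all genes were. It lay at 7.36, 4.83 and 4.55 CPM in congested libraries, against 11.4, 6.15 and 5.47 CPM in IRI libraries. The log2 fold change of Ccl25 was -0.46 ± 0.38 (SE, edgeR adjusted p = 0.933). On the opposite strand, Elavl1 overlaps Ccl25, Zmynd15 overlaps Cxcl16, Gm17268 overlaps Ccl2 and 4930578G10Rik overlaps Ccl21a.

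Ccl28, a mucosal chemokine, differed between replicate numbers (edgeR adjusted p = 0.00353) and not between groups in the test. It lay at 6.64, 52.7 and 42.8 CPM in congested libraries 1, 2 and 3, against 4.53, 51.2 and 68.1 CPM in IRI libraries. Library 1 was the lowest of each group by a wide margin. The log2 fold change of this gene was -0.28 ± 0.96 (SE, edgeR adjusted p = 0.969), 0.21 without congested library 1, 0.30 without IRI library 3 and 0.01 in limma-voom. Ccl20, a ligand of Ccr6 that epithelia make in inflammation, had a log2 fold change of 0.43 ± 0.96 (SE, edgeR adjusted p = 0.953), -0.20 without congested library 2 and -0.12 without IRI library 3. IRI library 3, at 0.177 CPM, held 2 counts of it. Ccl21a, a ligand of Ccr7 with near-identical copies, had a log2 fold change of -0.37 ± 0.62 (SE, edgeR adjusted p = 0.941), and 0.12 without IRI library 2. Ccr7, Ccr9, Ccr10 and Cxcr6, the receptors of Ccl21a, of Ccl25, of Ccl27a and Ccl28, and of Cxcl16, did not pass the filter, with at most 5, 3, 6 and 4 counts in a library.

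**Figure D1:**
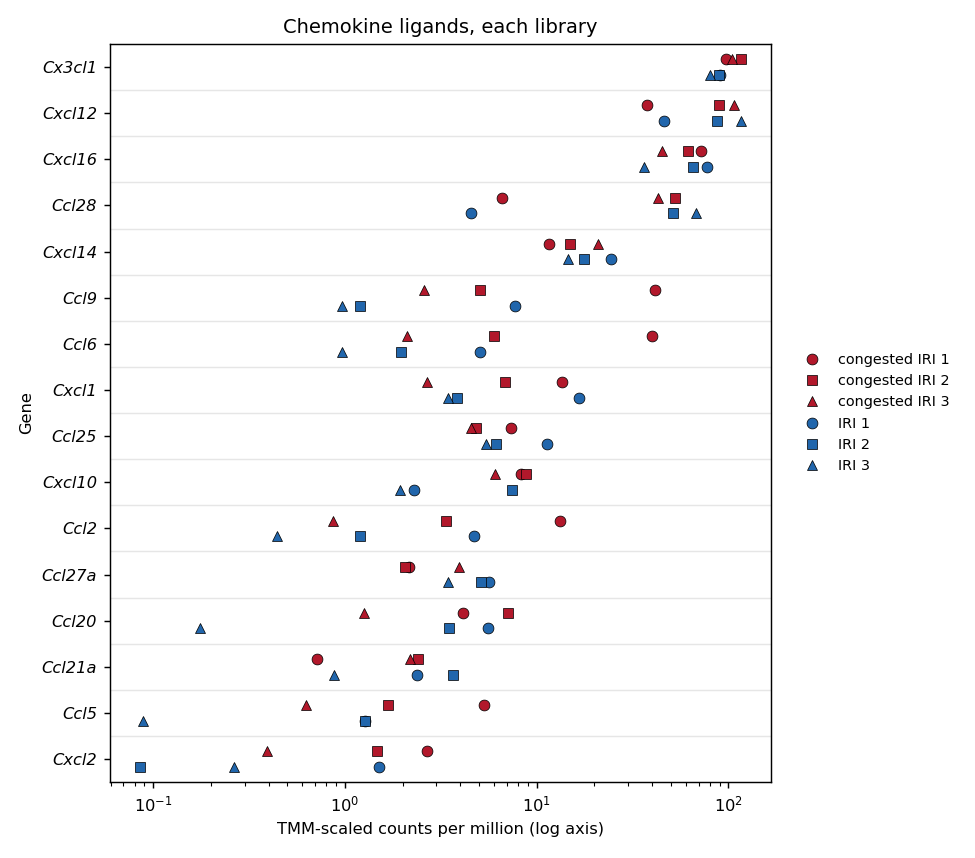
Level of each ligand that passed the filter in each library, as TMM-scaled CPM on a log axis, genes ordered by mean level. Red points above each line are the 3 congested IRI libraries and blue points below it the 3 IRI libraries, with the replicate number as the shape; circles (number 1) lie highest for Ccl6, Ccl9 and Ccl2 in both colours and lowest for Ccl28 and Cxcl12, and only Cx3cl1 has no overlap between colours.

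Among the receptors, all 7 that passed the filter had a log2 fold change above 0, with a median of 0.89, where 49.6% of all genes lay above 0 with a median of -0.0046. No receptor passed the test. Of the 16 ligands 8 lay above 0, with a median of 0.14. Without congested library 1, 8 receptors were tested and 6 lay above 0, while Ackr3 and Ccr1 lay below it, and the median of the 7 genes was 0.14. Without congested library 2, 6 of 7 lay above 0, and without IRI library 3, 6 of 8. With the replicate number as a term 7 of 7 receptors and 10 of 16 ligands lay above 0, against 50.7% of all genes, with medians of 0.61 and 0.17. These are counts over members chosen by name, not a test of the list.

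Ccr1, Ccr2 and Cxcr2 are receptors of inflammatory monocytes and neutrophils. With group alone, their log2 fold changes fell to between -0.06 and 0.25 without congested library 1, with IRI library 1 kept. With the replicate number as a term the values of Ccr1, Ccr2 and Cxcr2 were 0.79, 1.17 and 1.63 (edgeR adjusted p = 0.577 for each). Ccr2, the receptor of Ccl2, lay at 25.8, 6.15 and 3.22 CPM in congested libraries 1, 2 and 3, against 5.49, 3.33 and 2.91 CPM in IRI libraries. Congested library 1 was above all others, while congested library 3 lay within the IRI range. The fitted value, as a log2 fold change, was 1.58 ± 0.74 (SE, edgeR adjusted p = 0.933), and 0.25 without congested library 1; the differences within numbers were 2.20, 0.85 and 0.14. Ccr1, the receptor of Ccl6, Ccl9 and Ccl5, lay at 20.0, 5.78 and 3.84 CPM in congested libraries, against 7.0, 2.22 and 5.83 CPM in IRI libraries. Number 3 went the other way, at -0.58, against 1.49 and 1.32 in numbers 1 and 2. The log2 fold change of Ccr1 was 0.97 ± 0.68 (SE, edgeR adjusted p = 0.933), and -0.06 without congested library 1.

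Cxcr2, the receptor of Cxcl1 and Cxcl2 on neutrophils, lay at 5.65, 1.39 and 0.235 CPM in congested libraries 1, 2 and 3, against 1.51, 0.342 and 0.265 CPM in IRI libraries. Library 3 of each group held 3 counts of it. Its differences within numbers were 1.80, 1.62 and -0.10, and its log2 fold change was 1.73 ± 1.08 (SE, edgeR adjusted p = 0.933), or 0.19 without congested library 1 and 2.95 without IRI library 1. Cxcr1, the other neutrophil receptor, had at most 1 count in a library.

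**Figure D2:**
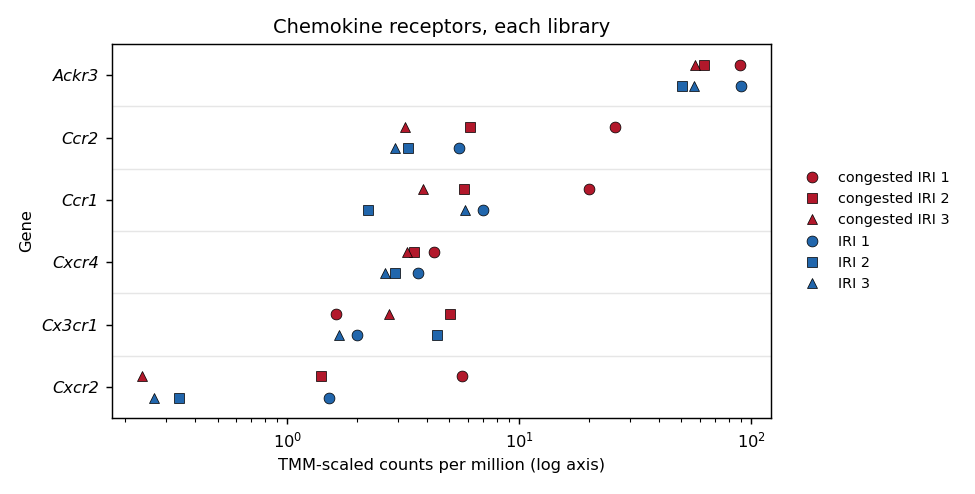
Level in each library of 6 of the 7 receptors that passed the filter, as TMM-scaled CPM on a log axis, genes ordered by mean level. Red points above each line are congested IRI and blue points below it IRI libraries, with the replicate number as the shape; congested library 1 (red circle) lies highest for Ccr2, Ccr1 and Cxcr2, and every receptor shown overlaps between the colours.

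Within equal replicate numbers, 9 of the 23 tested members were higher in the congested library in all 3 numbers, where 13.1% of all genes were. They were the ligands Ccl2, Ccl5, Ccl6, Ccl9, Cx3cl1, Cxcl2 and Cxcl10 and the receptors Ccr2 and Cxcr4. Their sizes ranged from 0.10 (Cx3cl1, number 1) to 2.93 (Ccl6, number 1). The median difference of the receptors was 1.49, 0.46 and 0.01 in numbers 1, 2 and 3, and that of the ligands -0.0045, 0.30 and 0.44, while over all genes it was 0.0037, 0.0072 and -0.0016. Single members went both ways, and Ccl6, Ccl9, Ccl2 and Ccl5 had their largest difference in number 1. The difference between ligands and receptors was not tested.

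**Figure D3:**
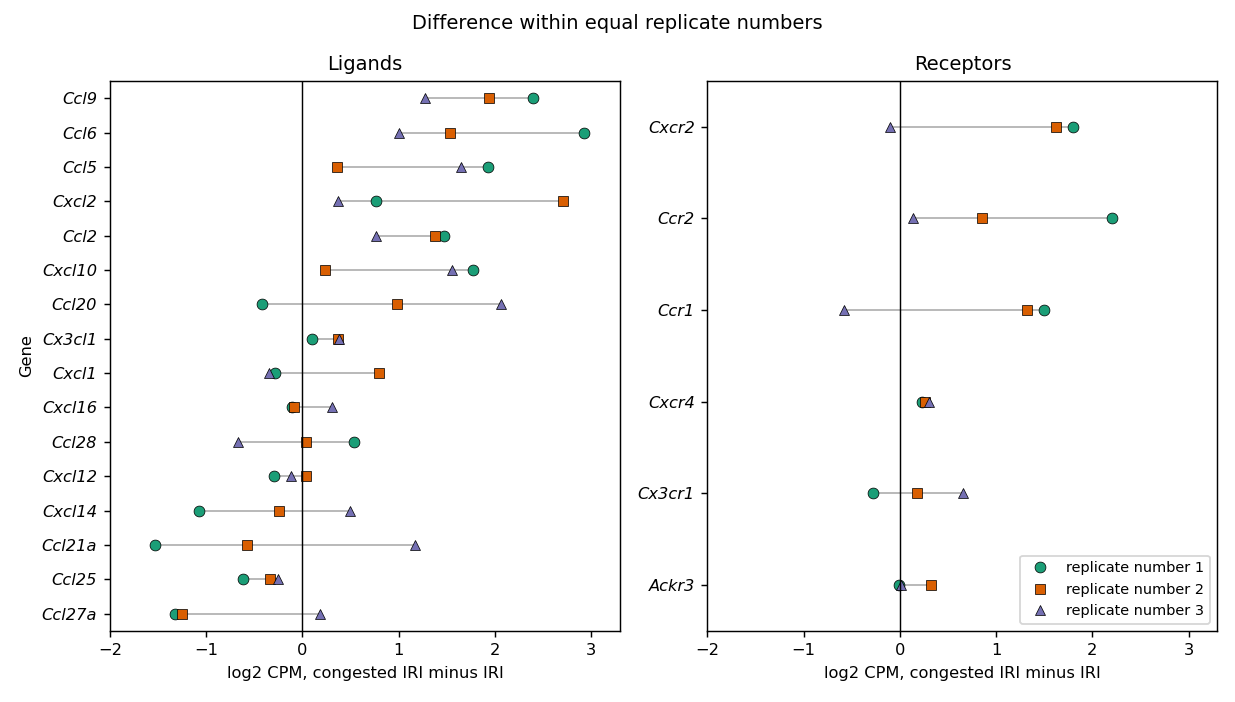
Difference in log2 CPM, congested IRI minus IRI, within each replicate number for the 16 ligands (left) and 6 of the 7 receptors (right) that passed the filter, ordered by their mean; the grey line spans the 3 numbers. Ccl9 and Ccl6 lie at 1.01 or more in all 3 numbers, and number 3 (triangles) lies at or below 0.14 for Cxcr2, Ccr2 and Ccr1.

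**Figure D4:**
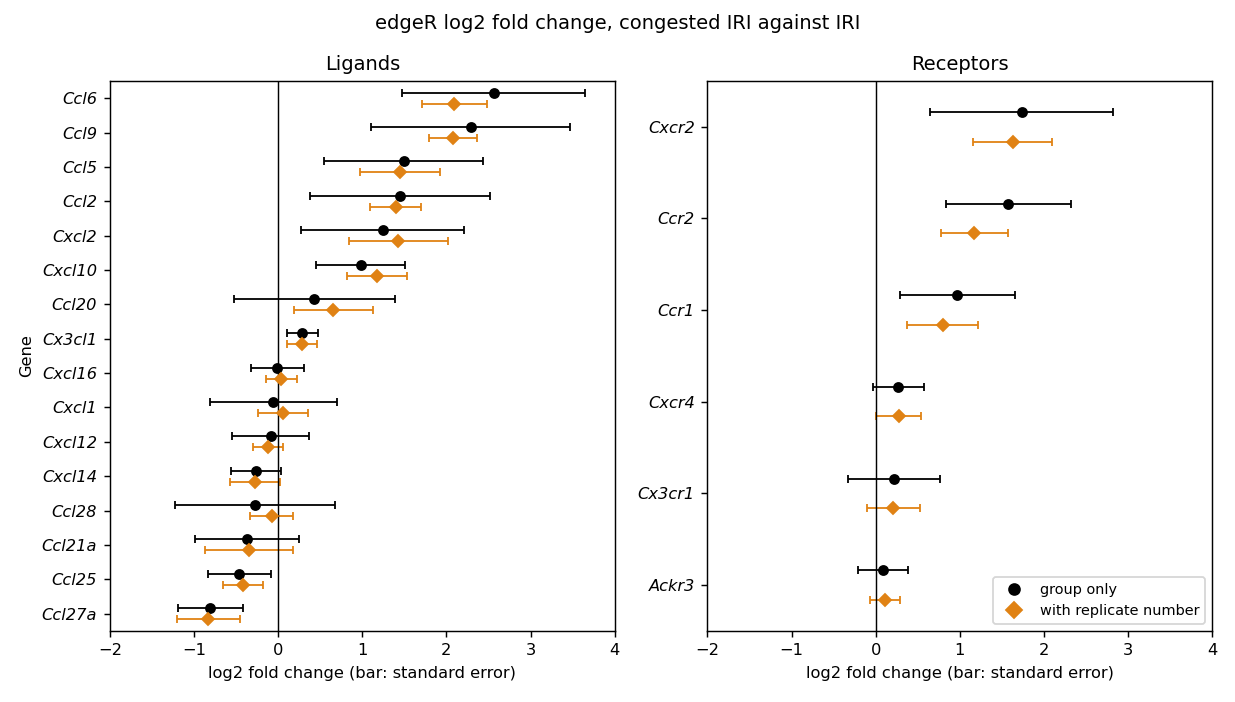
edgeR log2 fold change of congested IRI against IRI for each tested ligand (left) and 6 of the 7 tested receptors (right). Bars are 1 standard error, derived from the F statistic of the test. Black circles are the fit with group alone and orange diamonds the fit with the replicate number as a term; the estimate of Ccl6 is 2.56 with group alone and 2.10 with the number, and the bars of Ccl6, Ccl9 and Ccl2 are 1.09, 1.18 and 1.07 with group alone and 0.38, 0.29 and 0.30 with the number.

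Many members differed between replicate numbers. In edgeR's test of the replicate number, 9 of 23 tested members passed an adjusted p under 0.05, where 8.01% of all genes did. These were 8 ligands, Ccl2, Ccl5, Ccl6, Ccl9, Ccl20, Ccl28, Cxcl1 and Cxcl12, and the receptor Cxcr2. Ccl9 had the smallest edgeR adjusted p of these, 0.00254, followed by Ccl28 at 0.00353. The inducible ligands and Cxcr2 were higher in library 1 than in library 3 of both groups, whereas Ccl28 and Cxcl12 were lower in library 1. The labels do not say what a replicate number shares.

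Members outside the filter held few counts. Of the 19 ligands left out, Cxcl17 reached the highest, with 4, 16 and 9 counts in congested libraries 1, 2 and 3 and 47, 7 and 5 in IRI libraries. Ccl7, a further monocyte attractant that binds Ccr2, held 28, 16 and 1 counts in congested libraries, against 2, 8 and 0 in IRI libraries. Ccl3 held 1, 4 and 1 counts in congested libraries and 0 in each IRI library; a count of 0 allows up to 0.239, 0.256 and 0.265 CPM there, from 3 counts and for counting error only. Ccl11, Cxcl9, Cxcl5, Cxcl15, Ccl17, Ccl4 and Ccl8 had between 10 and 19 counts in their highest library. Ccl22, Ccl24, Cxcl11, Ccl19, Cxcl3, Cxcl13, Ccl1 and Xcl1 had at most 6. Of the 11 receptors left out, Ackr2 and Ackr4, which scavenge inflammatory and homeostatic chemokines, reached 12 and 10 counts, and Ackr1, Ccr4, Ccr7, Ccr9, Ccr10, Cxcr1, Cxcr3, Cxcr5 and Cxcr6 at most 6.

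Per kilobase of exon, Cx3cl1 was the most abundant ligand, at 26.9 CPM per kilobase in congested and 22.0 in IRI kidney. Cxcl16 followed at 19.7 and 19.8, while Cxcl12 stood at 9.55 and 10.2 and Cxcl14 at 8.63 and 10.4, so that their order differed between the groups. Ackr3, at 20.9 and 19.7, stood far above the next receptor, Ccr1, at 3.49 and 1.77. Ccl6 stood at 8.91 and 1.49 and Ccl9 at 5.36 and 1.08, so their place in the order differed between the groups, but congested library 1 sets most of those means. Summed over all 35 ligands the level was 369, 392 and 352.4 CPM in congested libraries 1, 2 and 3, against 315, 351.8 and 336 CPM in IRI libraries. For the 18 receptors it was 154, 90.3 and 73.1 CPM in congested libraries, against 112, 67.5 and 73.4 CPM in IRI libraries.

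The summed marker genes of myeloid cells were highest in congested library 1, as were Ccl2, Ccl5, Ccl6, Ccl9, Cxcl2, Ccr1, Ccr2 and Cxcr2. In bulk tissue, fewer cells of a type and less RNA per cell cannot be told apart. Monocyte and macrophage markers, of which 13 of 15 passed the filter and 11 lay above 0, summed to 402, 129 and 125 CPM in congested libraries 1, 2 and 3, against 194, 122 and 124 CPM in IRI libraries. Lyz2, the lysozyme gene of myeloid cells, lay at 197, 25.6 and 14.2 CPM in congested libraries, against 42.0, 14.5 and 11.1 CPM in IRI libraries. Some other markers of this list were not highest in congested library 1. Csf1r lay at 25.7, 21.4 and 42.3 CPM in congested libraries, against 15.3, 23.3 and 47.8 CPM in IRI libraries. Cd14 lay at 81.1, 17.9 and 8.95 CPM in congested libraries, against 84.0, 15.0 and 5.83 CPM in IRI libraries. The C1q genes of resident macrophages differed little, with a log2 fold change of -0.21 for C1qa. Neutrophil markers, of which 10 of 13 were in the table and 4 passed the filter, all 4 above 0, summed to 222, 15.2 and 7.93 CPM in congested libraries, against 74.2, 8.71 and 4.86 CPM in IRI libraries. Among them S100a8 rose by 1.39 on the log2 scale in DESeq2 with the replicate number (DESeq2 adjusted p = 0.0395), and edgeR called none. In the same DESeq2 fit S100a9 was not called, at 0.76 (DESeq2 adjusted p = 0.691). Ly6g, the defining gene of neutrophils, was near the floor and did not pass the filter. It held 4, 1 and 1 counts in congested libraries 1, 2 and 3 and 2, 0 and 0 in IRI libraries. The part of these cells in the values of the chemokine genes was not tested.

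**Figure D5:**
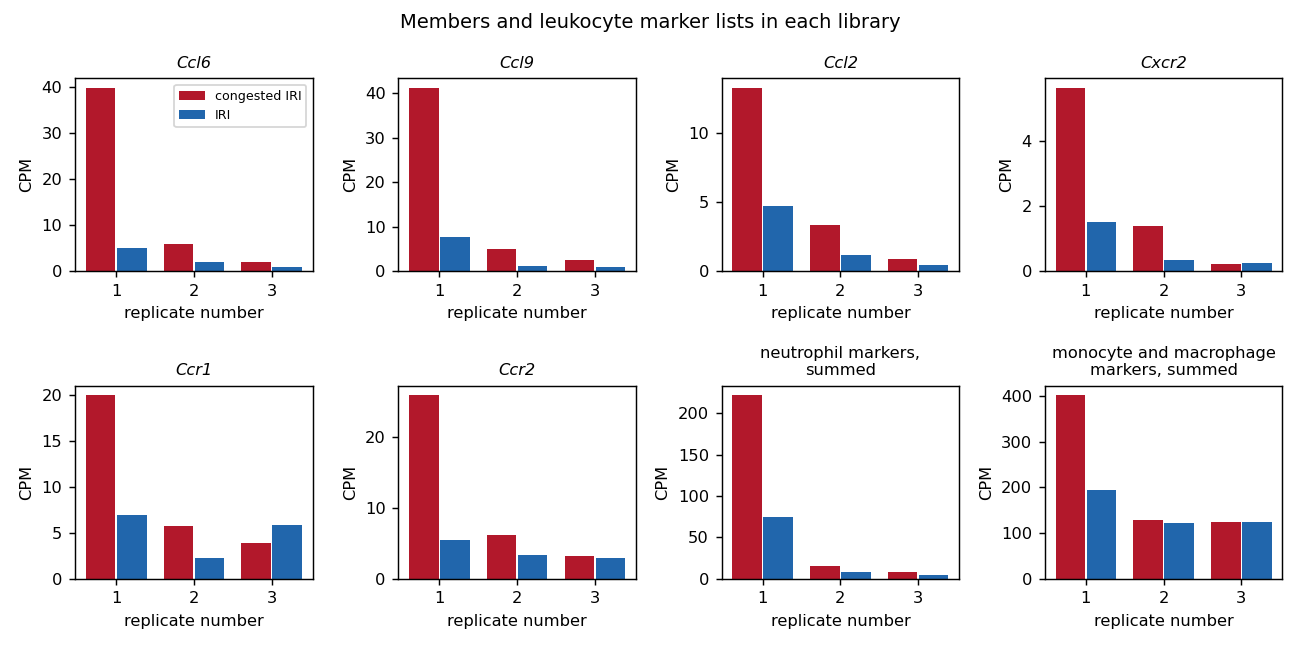
Levels of 6 members and the summed levels of the neutrophil and the monocyte and macrophage marker lists, in TMM-scaled CPM, for congested IRI (red) and IRI (blue) libraries by replicate number, each bar 1 library. All panels have their highest bar in congested library 1, from 5.65 CPM for Cxcr2 to 402 CPM for the monocyte and macrophage list.

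Lymphocyte markers were near the floor. T and NK cell markers, 1 of 10 above the filter, summed to 0.718 to 4.03 CPM in congested and 0.716 to 4.61 CPM in IRI libraries, and Cd3e was at 0 in all 3 congested libraries. B cell markers summed to 2.06 to 3.95 CPM in congested and 1.75 to 4.18 CPM in IRI libraries, dendritic cell markers to 7.09 to 11.4 and 9.90 to 10.3 CPM, and platelet markers to 5.49 to 6.36 and 5.41 to 8.37 CPM. Red blood cell genes summed to 99.7 to 141 CPM in congested and 75.4 to 179 CPM in IRI libraries. Of the labelled tissue, kidney cortex, proximal tubule markers summed to 2171 to 6471 CPM in congested and 2654 to 6063 CPM in IRI libraries, with the lowest value of each group in library 1. Thick ascending limb markers summed to 1775 to 6003.5 and 1325 to 5849.9 CPM, podocyte markers to 283 to 345 and 275 to 299 CPM, endothelial markers to 282 to 339 and 275 to 371 CPM, and fibroblast and mural cell markers to 112 to 309 and 109.5 to 256 CPM.

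Genes that act around the chemokine system were counted from 3 lists. Of 25 genes of chemokine receptor signalling 23 passed the filter, 20 lay above 0 with a median of 0.29, and 0 were called by edgeR. Dock2, which links chemokine receptors to Rac in leukocytes, lay at 2.51, 4.10 and 1.26 CPM in congested libraries 1, 2 and 3, against 0.477, 1.28 and 1.5 CPM in IRI libraries (log2 fold change 1.27, standard error 0.58, edgeR adjusted p = 0.933). Rac2, the Rac of blood cells, had a log2 fold change of 0.80 ± 0.48 (SE). Of 23 inducers of chemokine genes 18 passed the filter, 11 lay above 0 with a median of 0.10, and 0 were called. Among them Fos, with the smallest unadjusted edgeR p of the list, lay at 7.81, 5.86 and 5.65 CPM in congested libraries 1, 2 and 3. In IRI libraries Fos lay at 5.65, 2.39 and 1.06 CPM (log2 fold change 1.08, standard error 0.56, edgeR adjusted p = 0.933). Il1b, which encodes interleukin-1 beta, lay at 7.81, 2.12 and 0.863 CPM in congested libraries, against 2.62, 0.768 and 0.353 CPM in IRI libraries. Nfkb1 and Rela, which encode NF-kB subunits, had log2 fold changes of 0.26 and 0.07. Of 8 related genes outside the naming rule 7 passed the filter, 4 lay above 0 with a median of 0.03, and 0 were called. Mif, a cytokine that binds Cxcr2 and Cxcr4, lay at 101, 85.1 and 114 CPM in congested libraries. In IRI libraries Mif lay at 189, 139 and 92.3 CPM. Rarres2, of the same list, had a log2 fold change of -0.68 ± 0.42 (SE). For Pf4, a platelet CXC chemokine, it was 0.81 ± 0.89 (SE), with 0 counts in IRI library 3.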

How the data were processed

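The authors deposited 1 column of raw counts per library, with a row for each gene symbol. Per the labels' protocols, RNA was prepared with a stranded kit that selects polyadenylated RNA; per the submitters' processing notes, STAR 2.7.10a, featureCounts, Subread and the build GRCm38 were used. How counting treated strand and multimapping reads is not given here by labels or headers. Counts were fitted with edgeR 4.0.16 in R 4.3.3 (TMM scaling, filterByExpr with a minimum count of 10 and total of 15, robust quasi-likelihood test, group as the term), with p-values adjusted by Benjamini-Hochberg over 14274 genes and called under 0.05. On simulated data the fit with group alone recovered 9% of 2-fold and 82% of 4-fold changes. With the replicate number as a term it recovered 47% and 98%. A gene that did not pass the test may therefore still differ. Log2 CPM used a prior count of 2. The SE of an edgeR value was derived as the size of the log2 fold change over the square root of its F statistic. For DESeq2 it was the standard error that the fit reports. Levels per kilobase used the union of exons in the GENCODE annotation of GRCm38. Promoters came from RefSeq GRCm38.p6, which matched 39 of 53 members.

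Samples were grouped by title. No pair of libraries of a group agreed within counting noise (chi-square over its degrees of freedom, 17.2 to 175). Both groups carry the numbers 1 to 3, and what a number stands for is not in the labels. Deviations from group means correlated at 0.724, 0.342 and 0.429 within numbers 1, 2 and 3, each over 0.1, and numbers were taken to pair libraries. Crossed numbers 2 and 3 also correlated over 0.1, at 0.401 and 0.249. Deviations were centred within groups of 3, so where library 1 stands apart, libraries 2 and 3 deviate alike however they are paired. The correlations therefore cannot show how numbers 2 and 3 pair, and their pairing was assumed from the numbers. Fits with the replicate number as a term, DESeq2 1.42.0, limma-voom 3.58.1, other scalings and filters, and libraries left out were alternatives. DESeq2 with numbers left out was added after seeing the data. 1 receptor that passed the filter is counted in the totals and not reported here by itself. Every other member that passed was named, with values per library for those that were called, did not overlap, moved alike within numbers, had high levels or small p. Values per library of other members were picked with their values known. So were Ccl7, Ccl12, Ccl3, Cxcl17, Lyz2, Csf1r, Cd14, S100a9, Ly6g, C1qa, Cd3e, Pf4, Rarres2, Nfkb1 and Rela. The members and all lists were chosen with earlier results of these data known.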

Additional observations from a re-analysis of the deposited data

How the results depend on the processing

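Without the replicate block, edgeR called 0 ligands, 0 receptors and 0 genes under each scaling and filter, without robust dispersion and without any 1 library, as did DESeq2 and limma-voom. With the replicate block, edgeR and limma-voom called 0 genes and DESeq2 10, among them 2 ligands. Leaving 1 number out of both groups with the block kept leaves 1 residual degree of freedom. Those fits called 12, 9 and 5457 genes in edgeR without numbers 1, 2 and 3, and 3068 in DESeq2 without number 3. Over all fits that left something out, calls ranged from 0 to 8 ligands, 0 to 4 receptors and 0 to 5457 genes. All 3 upper ends came from edgeR without number 3. There 8 of 20 ligands and 4 of 7 receptors were called, beside 5457 of all 14453 genes tested. The cause was not tested. The median ligand value ranged from -0.0025 to 0.52, the higher without IRI library 1, and the median receptor value from 0.14 to 1.36.

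Of 22 members 11 kept their direction under every alternative that tested them, namely Ccl5, Ccl6, Ccl9, Ccl25, Ccl27a, Cx3cl1, Cxcl2, Cxcl10, Ccr2, Cxcr2 and Cxcr4. Cxcl2 and Cxcr2 gave no value in the paired fits without number 1. With all libraries kept, the log2 fold change of Cxcl1 turned to 0.088 with total counts, 0.015 with limma-voom, and 0.055, 0.044 and 0.037 with the replicate block in edgeR, DESeq2 and limma-voom. For Cxcl16 it turned to 0.11 and 0.038, and with the block to 0.034, 0.024 and 0.034, and for Ccl28 to 0.011 with limma-voom. With the block and numbers left out, values that turned were, in edgeR, 0.21 for Ccl21a, 0.27 for Cxcl1, 0.13 for Cxcl14 and 0.11 for Cxcl16 without number 1, 0.097 for Cxcl16 and -0.0021 for Ackr3 without number 2, and 0.21 for Ccl28, 0.20 for Cxcl1 and -0.0067 for Cx3cr1 without number 3. DESeq2 gave 0.30 for Ccl21a, 0.25 for Cxcl1, 0.13 for Cxcl14 and 0.11 for Cxcl16 without number 1, 0.086 for Cxcl16 and -0.013 for Ackr3 without number 2, and 0.22 for Ccl28, 0.21 for Cxcl1 and -0.061 for Cx3cr1 without number 3. Over all fits that left something out, log2 fold changes ranged from -0.011 to 2.81 for Ccl2, -0.20 to 1.63 for Ccl20 (to 1.18 without 1 library), -1.14 to 0.30 for Ccl21a (-0.75 to 0.12 without 1 library), -0.80 to 0.30 for Ccl28, -0.76 to 1.08 for Cxcl1, -0.39 to 0.24 for Cxcl12, -0.69 to 0.13 for Cxcl14, -0.26 to 0.23 for Cxcl16, -0.14 to 0.39 for Ackr3, -0.064 to 1.46 for Ccr1 and -0.30 to 0.78 for Cx3cr1. Members under about 10 counts per library, 0.732 to 0.897 CPM, are limited by depth.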
